A study of Mus musculus with 32 samples.

Results

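The nuclear genes for subunits of the 5 complexes of oxidative phosphorylation were followed in 4 tissues of mice without Nox4. They were taken by symbol from the array's probe annotation (Ndufa, Ndufb, Ndufc, Ndufs and Ndufv genes, Sdha to Sdhd, the Uqcr genes, Cox4 to Cox8 and the Atp5 genes). This gave 67 of the 17053 genes on the array, measured by 93 probes. Complex I had 26 of them, complex II 4, complex III 7, complex IV 15 and complex V 15. Symbols follow the annotation, so the ATP synthase genes carry their older Atp5 names.

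The tested animals were 4 male Nox4 -/- mice on a C57BL/6 background, aged 17 weeks, and each gave brain, kidney, muscle and pancreas. The comparison was with a pool of RNA from wild-type males, also C57BL/6 and of this age. The labels of the pool channel list 4 mice for it, whereas the labelling protocol speaks of 6 control animals, so the size of the pool is not settled. Each tissue sample was hybridised to 2 cDNA arrays with exchanged Cy3 and Cy5 dyes, which made 8 arrays a tissue and 32 in all. The labels do not say how the Nox4 allele was made or which muscle was taken.

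Oxidative phosphorylation turns the electrons of NADH and succinate into ATP at the inner mitochondrial membrane. Complexes I and II pass electrons to ubiquinone, complex III passes them on to cytochrome c, and complex IV gives them to oxygen. Complexes I, III and IV pump protons while they do so, and complex V, the ATP synthase, uses the proton gradient to make ATP. Complexes I and III are also known sites of superoxide formation. Nox4 is a membrane NADPH oxidase that releases hydrogen peroxide, and kidney is a tissue known for high Nox4 expression.

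Every value below is a log2 ratio, likely knockout over wild-type pool, averaged over the 2 arrays of an animal. A value above 0 then means more of the transcript in the knockout tissue than in the pool. Neither the direction nor whether the ratios of the dye-swapped arrays were turned before deposit is stated, so the direction rests on the channel labels and the design text. The error given after ± is the moderated SE of limma, with n = 4 animals unless another n is given. Array medians lay between −0.07 and 0.05. Across all genes, arrays of the same dye orientation from different animals of a tissue correlated at 0.03 to 0.49, and the 2 arrays of an animal at −0.57 to 0.05. The knocked-out gene itself cannot serve as a check, since 0 of 20794 probes carry its name. A ratio carries no level, so marker genes could not be used to check the labelled tissues, and fewer cells of a type cannot be told apart from less RNA per cell in whole tissue.

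In the ratios as deposited, no subunit differed from the wild-type pool in any tissue at an adjusted p under 0.05 (limma). The adjustment was Benjamini-Hochberg over all genes measured in at least 3 animals. Knockout brains had 0 of 62 tested subunits past this threshold, against 0% of all 16682 genes. Kidneys had 0 of 61, against 0.00595% of 16797 genes, which is 1 gene. Muscles and pancreata had 0 of 61 each, against 0% of 16611 and 0% of 16298 genes. The subunits' smallest adjusted p reached 0.475 in kidney, 0.619 in muscle, 0.776 in brain and 0.996 in pancreas. An 8-array fit with a dye term, which kept the deposited signs, also called 0 subunits in each tissue. With the Cy3 signs turned, limma called 3 of 61 subunits in muscle (5.31% of all genes) and 16 of 61 in pancreas (18.8%). Because the wild-type RNA was 1 pool, variation among wild-type mice is not part of these tests.

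At an unadjusted p under 0.05, few subunits stood out, and their shares lay near those of all genes. Above the pool were 3 of 62 in brain (2.33% of all genes), 4 of 61 in kidney (4.33%), 0 of 61 in muscle (3.85%) and 1 of 61 in pancreas (1.59%). Below the pool were 1 in brain (2.13%), 2 in muscle (4.02%), 0 in kidney (5.11%) and 0 in pancreas (1.9%). The gene Ndufa6 was among them in 3 tissues, on the low side in brain and muscle and on the high side in kidney. Subunits above 0 in all 4 animals numbered 7 of 61 in brain (8.9% of all genes), 8 of 61 in kidney (10.1%), 4 of 59 in muscle (6.89%) and 2 of 56 in pancreas (5.44%). Those below 0 in all 4 numbered 2 (6.7%), 1 (9.83%), 6 (12%) and 2 (5.15%) in the same tissues.

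The ratios were small. Over the subunits the median came to 0.02 (brain), 0.02 (kidney), −0.01 (muscle) and 0.01 (pancreas), against 0.01, 0.00, −0.02 and 0.00 over all genes in the same order of tissues. The 4 per-animal medians had an SD of 0.03, 0.01, 0.04 and 0.02, which is larger than the median of the subunits in brain, muscle and pancreas and smaller than it in kidney. The share of subunits above 0 was 40 of 62 in brain (53.4% of all genes), 37 of 61 in kidney (51.5%), 29 of 61 in muscle (41.6%) and 37 of 61 in pancreas (50.4%). With the Cy3 signs turned it was 35 of 62 in brain (54.1%), 32 of 61 in kidney (49.1%), 30 of 61 in muscle (49.4%) and 34 of 61 in pancreas (47.2%). The median size of a subunit's ratio, whatever its sign, was 0.05, 0.04, 0.08 and 0.08 in the 4 tissues, against 0.06, 0.05, 0.08 and 0.08 over all genes.

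If the ratios of the Cy3 arrays were turned before deposit, the 95% intervals show how large a change the arrays left room for. If they were not, averaging the 2 orientations cancels a knockout effect, and these intervals do not bound it. Intervals with the Cy3 signs turned were not counted. The interval lay within 1.5-fold in both directions for 58 of 62 subunits in brain (94.7% of all genes), 61 of 61 in kidney (98.3%), 54 of 61 in muscle (87.5%) and 49 of 61 in pancreas (81.3%). Of the 60 subunits tested in all 4 tissues, 44 had such an interval in every one, or 73.3%, against 71.8% of all genes. No subunit had a mean beyond 1.5-fold in any tissue, against 0.167% of all genes in kidney, 0.324% in brain, 1.53% in pancreas and 1.84% in muscle. That holds for the ratios as deposited. With the signs of the Cy3 arrays turned, means beyond 1.5-fold numbered 6 of 61 in pancreas (9.77% of all genes), 1 of 61 in muscle (3.58%) and 0 in brain (0.396%) and kidney (0.333%). A subunit's SE had a median of 0.05 in kidney, 0.06 in brain, 0.09 in muscle and 0.11 in pancreas, so kidney gave the narrowest intervals and pancreas the widest.

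**Figure D1:**
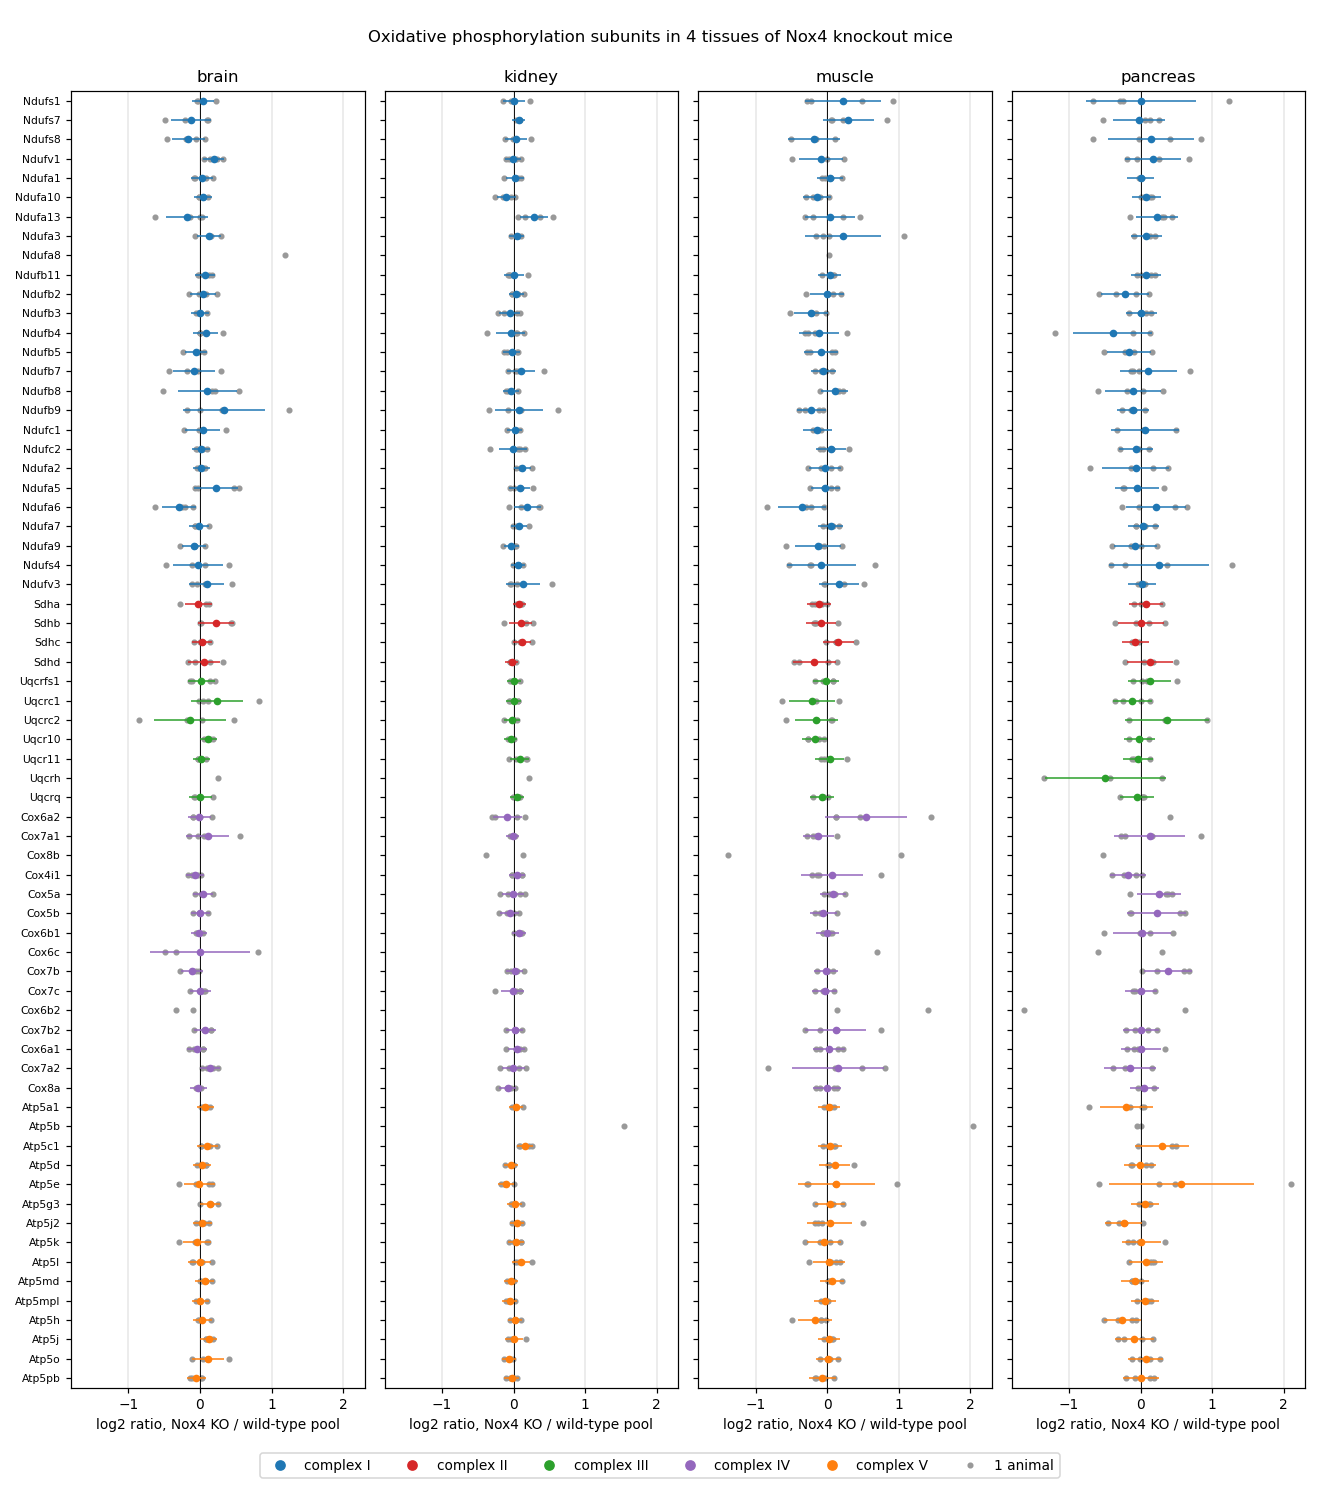
Log2 ratio (horizontal axis, Nox4 knockout over wild-type pool) of every subunit in brain, kidney, muscle and pancreas; grey points are animals, coloured points the mean with its 95% interval, coloured by complex, and subunits with too few animals show grey points only. Most means lie close to 0 and the points spread more widely in muscle and pancreas than in kidney.

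Complex by complex, the medians lay between −0.11 and 0.09. Complex I had a median of 0.04 in kidney, 0.03 in brain, 0.01 in pancreas and −0.03 in muscle. In kidney the 4 animals' medians of complex I lay between 0.02 and 0.05, all above 0. In muscle they lay between −0.09 and −0.01, all below 0, where the median of all genes was also below 0 at −0.02. Complex II, with 4 subunits, had medians of 0.09 in kidney, 0.04 in brain and pancreas and −0.10 in muscle, and in each tissue its animals' medians lay on both sides of 0. Complex III in muscle had a median of −0.11, with 5 of 6 subunits below 0 and animal medians between −0.23 and −0.03. With the Cy3 signs turned, that median was −0.07, and complex II in pancreas was at −0.46. Complex IV had medians from −0.00 in brain and in kidney to 0.02 in muscle, and complex V from 0.01 in pancreas to 0.03 in brain and muscle. In pancreas the animals disagreed most, with complex IV medians between −0.10 and 0.39.

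**Figure D2:**
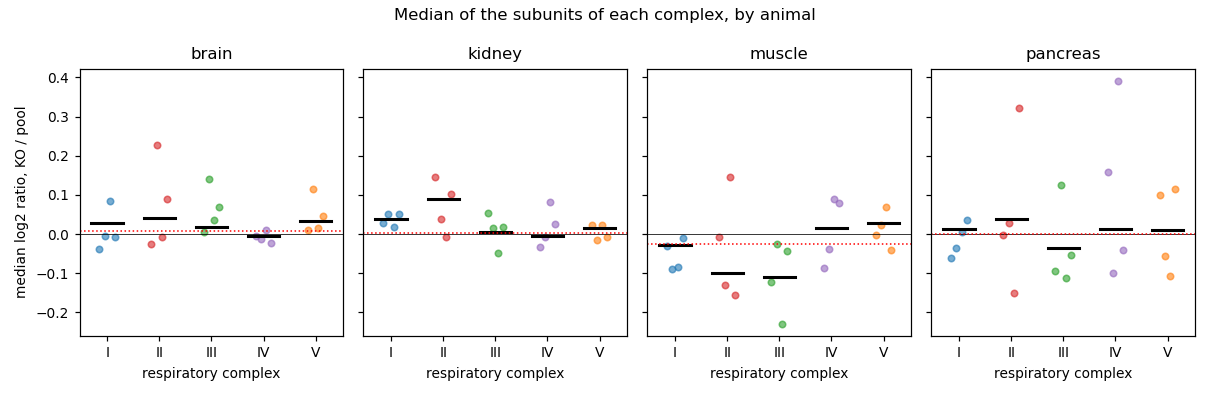
Median log2 ratio over the subunits of each complex (I to V, horizontal axis) in each tissue; points are the 4 animals, black bars the median of the subunit means, and the dotted red line the median over all genes. Complex I in kidney has all 4 animals above 0, complexes I and III in muscle all 4 below 0, and complex II and IV in pancreas spread widely.

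Complex I takes electrons from NADH in its peripheral arm and pumps protons through its membrane arm. Of its core subunits, Ndufs1, Ndufs7, Ndufs8 and Ndufv1 were measured. Ndufv1, which holds the NADH-binding flavin site, was at 0.14, 0.06, 0.23 and 0.32 in the 4 knockout brains. All 4 brains were above the pool and the mean was 0.19 ± 0.06 (SE, n = 4), with an interval of 0.04 to 0.34 and an adjusted p of 0.776 (limma). In kidney Ndufv1 averaged −0.01 ± 0.05, in muscle −0.08 ± 0.12 and in pancreas 0.17 ± 0.16, with animals on both sides of 0 in each.

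Ndufs1, the largest subunit of the peripheral arm and an iron-sulphur protein, was at −0.28, −0.23, 0.92 and 0.49 in muscle and at −0.25, −0.28, 1.24 and −0.67 in pancreas. Animal 3 was the highest in both tissues, and the means were 0.22 ± 0.22 in muscle and 0.01 ± 0.31 in pancreas. In brain and kidney Ndufs1 averaged 0.04 ± 0.06 and 0.01 ± 0.07. Ndufs7, which carries the iron-sulphur cluster closest to the ubiquinone site, was at 0.06, 0.22, 0.84 and 0.07 in muscle. All 4 muscles were above 0, but animal 3 was far above the others: the mean was 0.29 ± 0.15 with all 4 animals and 0.11 without animal 3. Its 2 probes stood at 0.05 and 0.54 in muscle.

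Among the accessory subunits of the peripheral arm, Ndufa6 had the widest range of means over the tissues in the ratios as deposited. It is one of the LYR-motif proteins of complex I. In the knockout brains it was at −0.09, −0.21, −0.24 and −0.63. All 4 were below 0, with a mean of −0.29 ± 0.09 (SE, n = 4), an interval of −0.53 to −0.06 and an adjusted p of 0.776 (limma). Of its 8 brain arrays 7 were below 0. The 2 arrays of brain animal 4 disagreed, at 0.16 with the knockout in Cy5 and −1.41 with it in Cy3. Muscle had −0.05, −0.30, −0.23 and −0.84, again all below 0 and lowest in animal 4, with a mean of −0.35 ± 0.14 and an adjusted p of 0.62 (limma, n = 4). Without animal 4 the mean was −0.18 in brain and −0.19 in muscle. Kidney had −0.06, 0.36, 0.37 and 0.10, with 3 of 4 above 0 and a mean of 0.19 ± 0.08. In pancreas the values were 0.48, −0.25, 0.64 and −0.03, with animals on both sides of 0 and a mean of 0.21 ± 0.17.

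Ndufa2, another accessory subunit of that arm, was at 0.26, 0.09, 0.11 and 0.04 in kidney, above 0 in all 4 animals, with a mean of 0.12 ± 0.05 and an adjusted p of 0.505 (limma, n = 4). The 2 dye orientations of Ndufa2 had means on opposite sides of 0 there. The 7 accessory subunits of the peripheral arm had a median of 0.08 in kidney, with 6 of 7 above 0 and animal medians between 0.04 and 0.10. In brain, muscle and pancreas their median was −0.01, −0.03 and 0.02. They include Ndufs4, needed for the late steps of assembly, and Ndufv3.

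The membrane arm holds 15 of the accessory subunits on the array, 14 of them tested. Ndufa13, also known as GRIM-19 for a reported part in cell death, was at 0.37, 0.55, 0.16 and 0.07 in the kidneys. All 4 were above the pool, the mean was 0.28 ± 0.08 (SE, n = 4) with an interval of 0.09 to 0.48 and the adjusted p was 0.475 (limma). In brain it was at −0.14, 0.00, 0.03 and −0.64, with animal 4 well below the others: the mean of −0.19 ± 0.12 was −0.04 without it. The 2 arrays of that animal disagreed, at 0.31 with the knockout in Cy5 and −1.58 with it in Cy3.

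Ndufb9, a further LYR-motif subunit, was at −0.32, −0.11, −0.39 and −0.06 in muscle. All 4 muscles were below 0, with a mean of −0.22 ± 0.08 and an adjusted p of 0.619 (limma, n = 4). In brain it was at −0.19, −0.00, 1.24 and 0.31, where animal 3 stood apart: the mean of 0.34 ± 0.23 with all 4 animals was 0.04 without it. Ndufb3 was below 0 in all 4 muscles too, at −0.21, −0.15, −0.51 and −0.01, with a mean of −0.22 ± 0.10. Ndufa10 was above 0 in all 4 pancreata, at 0.13, 0.16, 0.00 and 0.04, and averaged 0.08 ± 0.08. The membrane arm group as a whole had medians of 0.04 in brain, 0.01 in kidney and pancreas and −0.03 in muscle. Ndufa8 was measured in too few animals to be tested in any tissue.

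Complex II oxidises succinate in the citric acid cycle and is the only complex encoded wholly in the nucleus. Sdha, its flavoprotein, was at 0.12, 0.07, 0.04 and 0.10 in kidney and at −0.01, −0.07, −0.21 and −0.16 in muscle. All 4 kidneys were above 0 and all 4 muscles below it, with means of 0.08 ± 0.04 and −0.11 ± 0.07. The difference, kidney minus muscle, was 0.19 ± 0.10 with an interval of −0.02 to 0.41 and an adjusted p of 0.843 (limma, n = 4 each). Brain and pancreas averaged −0.02 ± 0.08 and 0.07 ± 0.10.

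Sdhb, the iron-sulphur subunit, was at 0.01, 0.45, −0.00 and 0.44 in brain. Animals 2 and 4 were high there and the other animals near 0, with a mean of 0.22 ± 0.10. Its means were 0.10 ± 0.07 in kidney, −0.09 ± 0.08 in muscle and 0.01 ± 0.13 in pancreas. Of the membrane anchors, Sdhc was at −0.08, −0.12, −0.07 and −0.02 in pancreas, below 0 in all 4 animals with a mean of −0.07 ± 0.08, and at 0.26, 0.01, 0.10 and 0.11 in kidney, above 0 in all 4 with a mean of 0.12 ± 0.05. The 2 dye orientations of Sdhc had means on opposite sides of 0 in both of these tissues. Sdhd, the other anchor, was at 0.01, −0.46, 0.13 and −0.39 in muscle, with animals on both sides of 0.

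Complex III moves electrons from ubiquinol to cytochrome c. Uqcr10, one of its small subunits, was at 0.05, 0.09, 0.19 and 0.14 in brain and at −0.27, −0.11, −0.27 and −0.05 in muscle. All 4 brains were above 0 and all 4 muscles below, with means of 0.12 ± 0.05 and −0.17 ± 0.07. In kidney it averaged −0.04 ± 0.04 and in pancreas −0.02 ± 0.09.

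Uqcrc1, a core protein, was at 0.04, 0.83, −0.02 and 0.11 in brain. Animal 2 alone was high, and the mean of 0.24 ± 0.15 was 0.05 without it. In muscle Uqcrc1 was at −0.16, −0.21, −0.63 and 0.17, with 3 of 4 animals below 0 and a mean of −0.21 ± 0.13. Uqcrc2, its partner core protein, averaged −0.13 ± 0.20 in brain, −0.02 ± 0.05 in kidney, −0.15 ± 0.12 in muscle and 0.37 ± 0.22 (SE, n = 3) in pancreas. Uqcrfs1, the Rieske iron-sulphur protein, averaged 0.02 ± 0.08, 0.01 ± 0.04, −0.02 ± 0.07 and 0.13 ± 0.12 in these tissues, always with animals on both sides of 0. Uqcrh, the hinge protein, could be tested only in pancreas, where 3 animals had 0.30, −0.43 and −1.36.

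Complex IV reduces oxygen to water. Cox4i1, the subunit known to take part in its regulation by ATP, was at −0.11, −0.14, 0.75 and −0.22 in muscle. Animal 3 was high and the other 3 were below 0, so the mean was 0.07 ± 0.17 with animal 3 and −0.16 without it. In brain, kidney and pancreas Cox4i1 averaged −0.07 ± 0.05, 0.05 ± 0.05 and −0.17 ± 0.10. Cox5a, a subunit on the matrix side, was at 0.38, 0.35, 0.44 and −0.15 in pancreas. There 3 animals lay close together above 0 and animal 4 below it, and the mean was 0.25 ± 0.12. Its means were 0.04 ± 0.06 in brain, −0.01 ± 0.07 in kidney and 0.08 ± 0.08 in muscle.

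Cox7b, a small single-pass subunit, had the only unadjusted p under 0.05 among the subunits in pancreas. It was at 0.61, 0.02, 0.68 and 0.23 in the 4 pancreata. All were above 0, but animals 1 and 3 were high and animal 2 near 0, with a mean of 0.39 ± 0.14 (SE, n = 4), an interval of 0.05 to 0.72 and an adjusted p of 0.996 (limma). In brain it was at −0.09, −0.01, −0.06 and −0.28, below 0 in all 4 animals, with a mean of −0.11 ± 0.06. In kidney and muscle the means were 0.02 ± 0.05 and −0.01 ± 0.07. Its 2 probes stood at 0.02 and 0.58 in pancreas.

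A few complex IV subunits come as isoforms, of which Cox6a2, Cox7a1 and Cox8b are the heart and muscle forms and Cox6a1, Cox7a2 and Cox8a the forms found in most tissues. Cox6a2 was at 0.13, 0.12, 1.46 and 0.46 in muscle. All 4 muscles were above 0 and animal 3 was far above the rest. The mean was 0.54 ± 0.23 (SE, n = 4), with an interval of −0.03 to 1.12 and an adjusted p of 0.62 (limma), and 0.24 without animal 3. Cox6a1 averaged 0.03 ± 0.09 in the same muscles. In brain and kidney Cox6a2 averaged −0.01 ± 0.06 and −0.09 ± 0.08, and in pancreas 1 animal had both arrays.

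Cox7a1 was at −0.19, −0.28, −0.16 and 0.14 in muscle, below 0 in 3 of 4, and Cox7a2 at 0.11, −0.82, 0.81 and 0.49, which spanned both sides widely. The muscle means were −0.12 ± 0.09 for Cox7a1 and 0.15 ± 0.26 for Cox7a2. In brain Cox7a2 was at 0.10, 0.19, 0.03 and 0.25, above 0 in all 4 animals, with a mean of 0.14 ± 0.06 and an adjusted p of 0.776 (limma, n = 4). Its 8 brain arrays were nevertheless on both sides of 0, with a mean of −0.24 where Cy5 marked the knockout and 0.52 where Cy3 did. Cox8a stayed close to 0, at −0.02 ± 0.05, −0.08 ± 0.05, −0.01 ± 0.08 and 0.05 ± 0.08 in brain, kidney, muscle and pancreas. Cox8b, the muscle form, had both arrays in 2 muscles only, at −1.38 and 1.03, and was not tested in any tissue. Cox6b2, a testis form, was also tested in no tissue, and Cox6c in brain only, as fewer than 3 animals had both arrays elsewhere. Of the 2 heart and muscle forms tested in muscle, 1 had a mean above 0 and the other below.

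**Figure D3:**
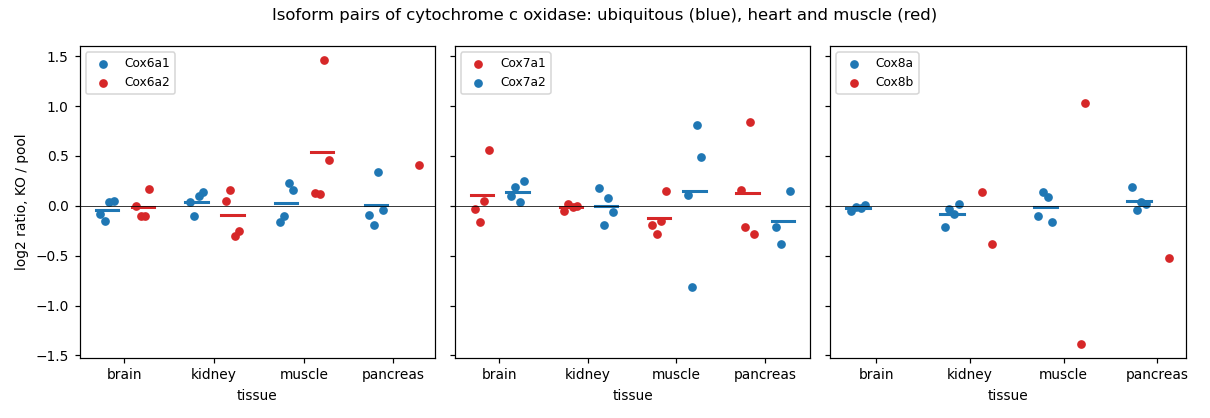
Log2 ratio (vertical axis) of the isoform pairs of cytochrome c oxidase by tissue; points are animals, bars the mean of subunits with at least 3 animals, blue the form found in most tissues and red the heart and muscle form. Cox6a2 in muscle has all 4 animals above 0 with 1 animal at 1.46, while Cox7a1 in muscle has 3 of 4 below 0.

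Complex V has a catalytic F1 part, a membrane part and a peripheral stalk. Atp5c1, the central gamma shaft of F1, was at 0.26, 0.08, 0.21 and 0.09 in the kidneys. All 4 animals and all 8 arrays were above 0, with a mean of 0.16 ± 0.05 (SE, n = 4), an interval of 0.05 to 0.28 and an adjusted p of 0.475 (limma). It was the only subunit on the same side of 0 on all 8 arrays in a tissue, where 1 of 61 subunits compares with 0.558% of all genes above 0 on all 8 kidney arrays. Below 0 on all 8 were 0 subunits in kidney (0.9% of all genes), brain (0.491%), muscle (0.549%) and pancreas (0.143%), and above 0 on all 8 were 0 in brain (0.405%), muscle (1.57%) and pancreas (0.0846%). Atp5c1 averaged 0.10 ± 0.06 in brain, 0.04 ± 0.07 in muscle and 0.30 ± 0.15 (SE, n = 3) in pancreas. Atp5a1, which encodes the alpha subunit of the F1 head, averaged 0.08 ± 0.05, 0.04 ± 0.04, 0.03 ± 0.06 and −0.20 ± 0.15 in the 4 tissues, and was above 0 in all 4 brains. Of its 8 brain arrays only 5 were above 0, and brain animal 4 had 0.90 with the knockout in Cy5 and −0.69 with it in Cy3. Its 3 probes ran from −0.04 to 0.22 in brain. Atp5b, the beta subunit that holds the catalytic sites, had no value or one beyond 8 in size on many arrays and was tested in no tissue.

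Of the smaller F1 subunits, Atp5d was at 0.01, 0.03, 0.37 and 0.02 in muscle. All 4 were above 0, 3 of them by very little, and the mean of 0.11 ± 0.09 was 0.02 without animal 3. Atp5e was at 0.49, −0.58, 2.10 and 0.26 in pancreas, the widest spread of any subunit there as deposited, with a mean of 0.57 ± 0.41. In the peripheral stalk, Atp5j was at 0.14, 0.19, 0.08 and 0.08 in brain, above 0 in all 4 animals, with a mean of 0.12 ± 0.05 (SE, n = 4) and an adjusted p of 0.776 (limma). Atp5h was at −0.51, −0.07, −0.32 and −0.12 in pancreas, below 0 in all 4, with a mean of −0.26 ± 0.10 and an adjusted p of 0.996 (limma, n = 4). Atp5h in muscle was at −0.01, −0.09, −0.49 and −0.08, also all below 0, with animal 3 the lowest. Atp5o, the stalk's oligomycin-sensitivity protein, was at −0.05, −0.01, −0.06 and −0.13 in kidney, below 0 in all 4 with a mean of −0.06 ± 0.04. The ATPase inhibitor, listed as Atpif1 and not a subunit, averaged −0.10 in brain and −0.10 in muscle, −0.05 in kidney and −0.13 in pancreas, with 0 adjusted p under 0.05.

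In the ratios as deposited, direct tests between tissues also called 0 of 60 subunits for each of the 6 pairs. They used limma on all 4 tissues, with 12 residual degrees of freedom and Benjamini-Hochberg adjustment. Over all 16186 genes the calls were 0% for brain against kidney, 0.704% for brain against muscle, 0% for brain against pancreas, 0.0185% for kidney against muscle, 0% for kidney against pancreas and 0.933% for muscle against pancreas. At an unadjusted p under 0.05 there were 2, 4, 5, 1, 3 and 6 subunits in that order of pairs, against 2.93%, 9.56%, 8.38%, 6.36%, 5.83% and 13.2% of all genes. With the animal as a block the calls of subunits were 0 for each pair as well.

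Uqcr10 had the smallest adjusted p of any pair, with a brain minus muscle difference of 0.29 ± 0.08 (SE, n = 4 each), an interval of 0.12 to 0.46 and an adjusted p of 0.136 (limma). It was named for its small p in this pair, where 9.56% of all genes had an unadjusted p under 0.05 (limma). Uqcrc1 differed by 0.45 ± 0.19 in the same pair, with brain animal 2 at 0.83 and the other brains from −0.02 to 0.11, and had an adjusted p of 0.445 (limma, n = 4 each). Cox7b differed by −0.50 ± 0.13 between brain and pancreas (adjusted p = 0.258, limma), by −0.37 ± 0.13 between kidney and pancreas (adjusted p = 0.699, limma) and by −0.40 ± 0.13 between muscle and pancreas (adjusted p = 0.173, limma). Each of these comparisons shares the pancreas values. Their SE rests on a spread shared by all 4 tissues, although the subunits' median SE within a tissue was 0.05 in kidney and 0.11 in pancreas.

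Ndufa6 differed by −0.48 ± 0.20 for brain minus kidney, 0.54 ± 0.20 for kidney minus muscle and −0.56 ± 0.20 for muscle minus pancreas. The adjusted p-values (limma, n = 4 each) were 0.99995, 0.567 and 0.233. Its 4 brains lay below 0 where 3 of 4 kidneys lay above 0. Ndufa13 differed by −0.47 ± 0.19 for brain minus kidney, with an adjusted p of 0.99995 (limma, n = 4 each). Its brain mean of −0.19 was −0.04 without animal 4. The highest brain and the lowest kidney lay close together, at 0.03 and 0.065 for Ndufa13 and at −0.09 and −0.06 for Ndufa6. Both genes were named for their small p in this pair, and the share of all genes without overlap was not counted. Atp5h differed by 0.29 ± 0.11 for brain minus pancreas and by 0.28 ± 0.11 for kidney minus pancreas, with adjusted p-values of 0.545 and 0.797 (limma, n = 4 each).

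**Figure D4:**
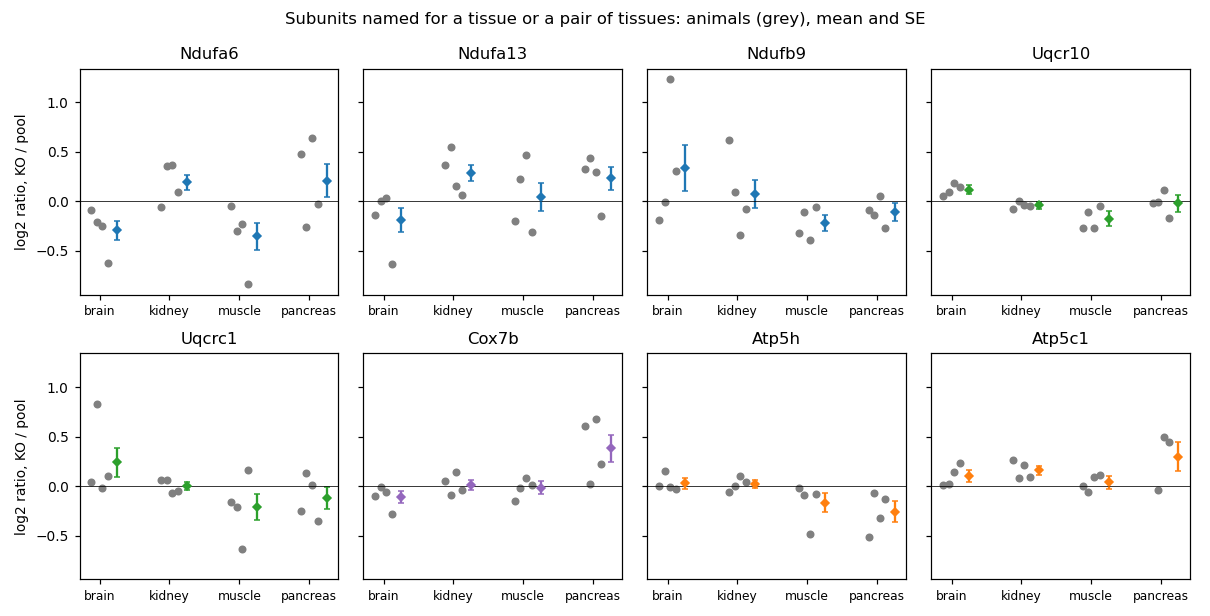
Log2 ratio (vertical axis) of 8 subunits in brain, kidney, muscle and pancreas; grey points are the 4 animals and coloured diamonds the mean with its SE. Ndufa6 lies below 0 in all 4 brains and muscles, Cox7b above 0 in all 4 pancreata, Uqcr10 above 0 in the brains and below 0 in the muscles, and Atp5c1 above 0 in all 4 kidneys; none of these passed the adjusted threshold.

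Of the 60 subunits tested in all 4 tissues, 8 had a mean above 0 in each of them (5.49% of all genes) and 2 had a mean below 0 in each (6.22%). The 8 were Ndufs1, Ndufv3, Ndufa1, Ndufa3 and Ndufb11 of complex I, Cox7b2, a testis form of complex IV, and Atp5c1 and Atp5g3, a c-ring gene of complex V. Their means ranged up to 0.22 for Ndufa3 and Ndufs1 in muscle and up to 0.30 for Atp5c1 in pancreas, and down to 0.00 for Ndufa1 in pancreas. The 2 probes of Ndufa3 lay on opposite sides of 0 in muscle, at −0.04 and 0.49. The 2 below 0 were Ndufa9, whose means lay between −0.13 and −0.03, and Ndufb5, between −0.16 and −0.03.

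The spread between animals was uneven. In muscle, animal 3 had 11 of 59 subunits more than 0.5 from 0 in size, where the other muscles had 1, 3 and 3 of 61 (1.43%, 5.57% and 7.29% of all genes). Over all genes the share was 15.8% in animal 3, near the 18.6% of the subunits. Those above 0.5 in it were Atp5e, Cox4i1, Cox6a2, Cox7a2, Ndufs1, Ndufs7 and Ndufv3, and those below −0.5 were Ndufa9, Ndufb3, Uqcrc1 and Uqcrc2. In pancreas, animal 3 had 12 of 60 beyond 0.5 (14.7% of all genes) and animal 1 had 8 of 58 (12.7%). In kidney no animal had more than 2 (0.948% to 1.74% of all genes), and in brain animal 4 had the most, 6 of 61 (9% of all genes).

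The 2 dye orientations gave different values for many subunits. For each gene the mean with the knockout in Cy5 minus the mean with the knockout in Cy3, divided by 2, measures this; it is also the ratio that would result if the Cy3 arrays had been deposited without turning. The subunits had a median size of it of 0.09 in kidney, 0.11 in brain, 0.12 in muscle and 0.24 in pancreas, against 0.04, 0.05, 0.08 and 0.08 for the averaged ratios. It was above 0 in all 4 tissues for 20 of the 60 subunits (27.1% of all genes) and below 0 in all 4 for 16 (27.1%). Cox7a2 had −0.38, −0.33, −0.34 and −0.84 in brain, kidney, muscle and pancreas. Cox5a had 0.04, 0.16, 0.32 and 0.81, and Cox5b, the zinc-binding subunit, 0.20, 0.20, 0.45 and 0.71. Among values named above for animals on 1 side of 0, it was larger in size than the averaged ratio for several. These were Ndufa2 (−0.16), Sdha (−0.09) and Sdhc (−0.15) in kidney, Ndufb3 (0.26) in muscle, and Ndufa10 (0.32) and Sdhc (−0.48) in pancreas. It was smaller for Ndufv1 and Ndufa6 in brain, Ndufa13 and Atp5c1 in kidney, and Cox7b and Atp5h in pancreas.

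Read with the Cy3 signs turned, the limma test called 0 subunits in brain (0% of all genes), 0 in kidney (0.00595%), 3 in muscle (5.31%) and 16 in pancreas (18.8%) at an adjusted p under 0.05. In muscle these were Atp5k and Ndufb4 above 0 (1.77%) and Ndufb11 below (3.54%). In pancreas 8 were above 0 (8.37%): Cox5a, Cox5b, Cox7b2 and Cox8a of complex IV, Ndufb3 and Ndufc2 of complex I, and Atp5e and Atp5k of complex V. Another 8 were below 0 (10.5%): Ndufa2, Ndufa3, Ndufb11, Sdha, Sdhc, Cox7a2, Atp5j and Atp5l. Each complex except complex III had subunits among these calls. Values beyond 8 in size were 920 positive and 0 negative on arrays with the knockout in Cy5. With it in Cy3 they were 0 positive and 924 negative. If the Cy3 arrays were turned, Cy3 was the low channel in both cases, and if not, the pool was. The half-difference had the same sign in all 4 tissues for 60% of the subunits and 54.2% of all genes. Which reading holds, and how far a dye effect of a probe enters, was not tested.

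**Figure D5:**
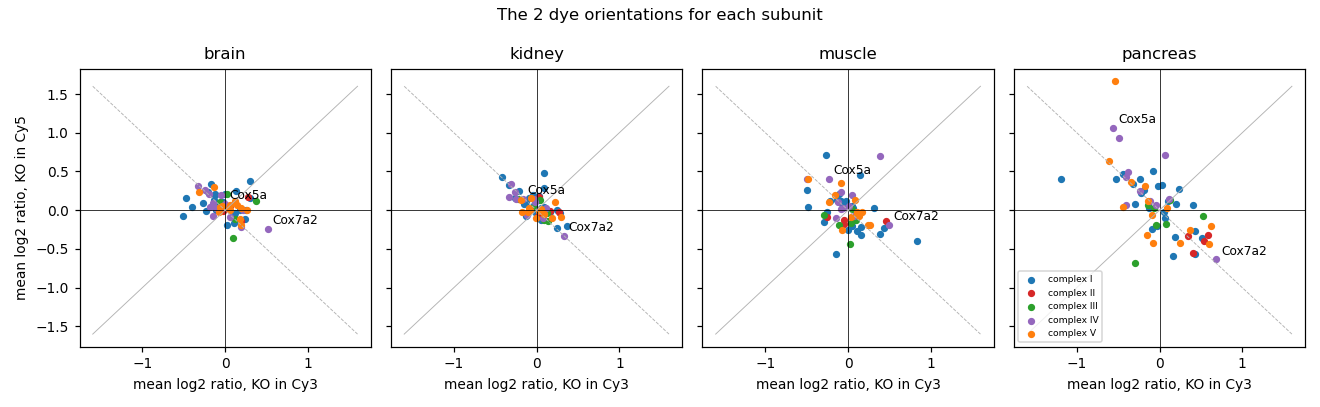
Mean log2 ratio of each subunit with the knockout in Cy5 (vertical axis) against that with the knockout in Cy3 (horizontal axis) in each tissue, coloured by complex; the solid diagonal marks equal values and the dashed one opposite values. The points follow the dashed line most clearly in pancreas, where Cox5a is at 1.07 with the knockout in Cy5 and −0.56 with it in Cy3.

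Probes of the same gene also disagreed. Of the 20 subunits with more than 1 probe, all probes had the same sign in 8 in brain, 11 in kidney and 10 in muscle, and in 9 of 18 in pancreas. From the highest to the lowest probe the median gap came to 0.08 in kidney, 0.11 in muscle, 0.16 in brain and 0.17 in pancreas. The widest gap was 0.56, for Cox7b in pancreas, and it reached 0.53 for Ndufb8 in brain and for Ndufa3 in muscle. Cross-hybridisation between isoforms of similar sequence was not tested, since the probe sequences were not used here.

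Genes that serve the same pathway gave 0 calls too, in 6 lists and 4 tissues (limma, adjusted p under 0.05). The genes named from each list were those with its smallest unadjusted p over the tissues, so they do not represent their list. Of 32 assembly factors on the array, 9 were above 0 in kidney and 23 below (51.5% of all genes were above), with a median of −0.04 against 0.00 for all genes, and 6 had an unadjusted p under 0.05 on the low side (5.11% of all genes). In brain, muscle and pancreas 14 of 32, 12 of 31 and 16 of 30 assembly factors were above 0. The shares of all genes there were 53.4%, 41.6% and 50.4%. Foxred1, an assembly factor of complex I, was at −0.21, −0.25, −0.18 and −0.14 in kidney, below 0 in all 4 with a mean of −0.19 ± 0.04 and an adjusted p of 0.443 (limma, n = 4). Cox20, which assists assembly of complex IV, was at 0.55, 0.47, 0.44 and 0.35 in pancreas, above 0 in all 4 with a mean of 0.45 ± 0.08 and an adjusted p of 0.996 (limma, n = 4).

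Of 15 citric acid cycle enzymes, 10 were above 0 in brain, 7 in kidney, 6 in pancreas and 5 in muscle. Over all genes the shares above 0 were 53.4%, 51.5%, 50.4% and 41.6% in that order of tissues. In brain Suclg2, a subunit of succinyl-CoA ligase, averaged 0.18 ± 0.07 and was above 0 in all 4 animals, while Ogdh, of the oxoglutarate dehydrogenase complex, averaged −0.16 ± 0.07 and was below 0 in all 4. Among 17 electron carriers and enzymes that feed ubiquinone, 9, 8, 10 and 13 were above 0 in brain, kidney, muscle and pancreas. The same shares of all genes stand beside these counts. Coq3 and Coq7, enzymes of ubiquinone synthesis, averaged 0.25 ± 0.07 in brain and −0.20 ± 0.06 in kidney, on 1 side of 0 throughout in that tissue.

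The 17 genes of exchange across the inner membrane had medians of −0.02 in brain, where 5 of 16 were above 0, −0.02 in kidney, with 7 of 17, −0.09 in muscle, with 3 of 17, and −0.07 in pancreas, with 6 of 17. Of all genes, 53.4%, 51.5%, 41.6% and 50.4% were above 0 in these tissues. Ucp1, the uncoupling protein of brown fat, averaged −0.15 ± 0.05 in brain, and Immt, an organiser of the cristae, 0.30 ± 0.11 in kidney. Of the 6 mitochondrial antioxidants, 2, 1, 1 and 4 were above 0 in the same order of tissues, beside the same shares of all genes. Gpx1, a glutathione peroxidase, was at −1.27, −0.42, −0.02 and −0.27 in brain, with animal 1 the lowest and a mean of −0.50 ± 0.20, and Txn2, the mitochondrial thioredoxin, averaged −0.15 ± 0.07 in muscle.

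Of the regulators of mitochondrial biogenesis, 7 of 17 were above 0 in brain, 9 of 17 in kidney, 7 of 17 in muscle and 10 of 16 in pancreas. The shares of all genes were 53.4%, 51.5%, 41.6% and 50.4%. Gabpb1, a subunit of the factor that activates many subunit genes, was at 0.39, 1.32, 0.59 and 0.70 in muscle. All 4 muscles were above 0, with a mean of 0.75 ± 0.16 and an adjusted p of 0.387 (limma, n = 4). The 61 subunits had a median of −0.01 in the same muscles, and a link between Gabpb1 and the subunits was not tested. Polg2, the accessory subunit of the mitochondrial DNA polymerase, averaged −0.16 ± 0.06 in brain. Markers of the cell types that make up the 4 tissues, in 14 lists, gave 0 calls in the ratios as deposited. In muscle the 7 markers of oxidative fibres on the array had a median of −0.07, with 5 of 7 below 0, and the 7 markers of glycolytic fibres had −0.07, also with 5 of 7 below 0, where 41.6% of all genes were above 0. The oxidative markers ranged from −0.36 to 0.72 and the glycolytic ones from −0.19 to 0.06. At an unadjusted p under 0.05 (limma), 1 oxidative marker was higher (3.85% of all genes) and 1 lower (4.02%). The 6 leukocyte markers had a median of −0.12 in muscle, with 5 of 6 below 0 and 2 at an unadjusted p under 0.05 on the low side (4.02% of all genes).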

How the data were processed

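The deposited table holds 1 log2 ratio for each of 20794 probes and 32 arrays. The file names no base for the logarithm, and base 2 was taken from the largest values. How the authors scanned, corrected and normalised the arrays is not given in the sources used here. Arrays carried 19815 to 20684 values. Values beyond 8 in size (1844 of 655162), which were positive on Cy5 knockout arrays and negative on Cy3 ones, were taken as missing. Of 2976 values on the subunits' probes, 20 were of that kind and 92 were missing. The number of arrays limits the precision.

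A probe annotation table gave 12771 probes a symbol, and all 67 subunit symbols matched RefSeq genes (GRCm38.p6). Probes of a symbol were averaged (20 subunits had more than 1), then the 2 arrays of an animal, both of which were required. Within a tissue, the mean of the animals was set against 0 with limma 3.58.1 in R 4.3.3 (lmFit, eBayes, two-sided, at least 3 animals). Between tissues it fitted all 4 at once. P-values were adjusted by Benjamini-Hochberg over all genes with a threshold of 0.05. The steps were tested on simulated data.

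Subunits and lists were chosen with earlier results of these data known. Named were, for each tissue, up to 3 subunits above and 3 below 0 with the lowest p whose animals all shared a sign. For each pair of tissues the 2 of smallest p were named, as were fixed core and isoform genes and any called. Of each list, the 2 genes with the smallest unadjusted p over the tissues were named. That choice favours genes whose animals share a sign. Ndufb3, Sdhd, Uqcrc2, Uqcrh, Cox5b, Atp5e and the other named values outside these rules were chosen after their values were seen.

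Tissues of equal animal number come from 1 mouse, per the labels, and so are paired. Deviations of an animal from its tissue means correlated between tissues at −0.09 to 0.10. Alternatives were turned Cy3 signs, floor values kept, centred or scaled arrays, single probes, 1 array accepted, 1 dye orientation, an 8-array fit with a dye term, robust or shared spread, the animal as a block, only 2 tissues, and each animal left out. The files name no genome build, so no coordinates are given.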

Additional observations from a re-analysis of the deposited data

Results flagged for a closer look

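In 6 of 109 groups of 4 animals, 1 animal lay further from the rest than Dixon's test allows at 95%. Chance flags about 1 in 20 independent groups, and these groups share animals. Of the 6, 4 were muscle animal 3. Cox4i1, a regulatory subunit of complex IV, was at 0.75 in that animal and between −0.22 and −0.11 in the other muscles. Sdhb, the iron-sulphur subunit of complex II, was at 0.16 in it and between −0.19 and −0.15 in the others. Of complex V, Atp5d was at 0.37 in it and between 0.01 and 0.03 in the others, and Atp5h at −0.49 and between −0.09 and −0.01. For Cox5a, pancreas animal 4 had −0.15 and the remaining pancreata 0.35 to 0.44. Uqcrc1, a core protein of complex III, was at 0.83 in brain animal 2 and between −0.02 and 0.11 in the other brains. The muscle array pair of animal 3 had 15.8% of all genes beyond 0.5 in size. Its part in these values was not tested.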

How the results depend on the processing

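The count of called subunits was 0 in 114 of 118 alternatives over the 4 tissues and 6 pairs, the replicate block (0 for each pair), leaving out any animal (0 to 0) and kept floor values included. The other 4 had the Cy3 signs turned: 3 called in muscle (all genes 882), 16 in pancreas (3070), 5 for brain minus pancreas (1611) and 2 for kidney minus pancreas (390). The alternatives without turned Cy3 signs kept the deposited signs, so their counts do not bear on whether the Cy3 arrays were turned. The median over the subunits moved by more than 1 SD of the animals' medians in 6 of 48 alternatives. In kidney, 0.0162 became 0.0296 with turned signs, 0.0334 with centred and scaled arrays and 0.0285 with the knockout in Cy3 only. In brain, 0.0228 stayed within that SD but became 0.0393 with turned signs, 0.0485 with the knockout in Cy5 only, 0.0392 without animal 1 and 0.012 without animal 2. In pancreas, 0.0104 became 0.036 with the knockout in Cy5 only and −0.0549 with it in Cy3 only, and lay between 0.0035 and 0.0336 without 1 animal, highest without animal 2. In muscle, the median of −0.01 was 0.01 with centred arrays and 0.01 with scaled ones, 0.02 with 1 array accepted and from −0.03 to 0.03 without 1 animal, so its sign is not settled. The cause was not tested.

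Named subunits had 663 values in other settings with the signs as deposited and both orientations. Of these, 661 stayed within 1 SD, 15 changed sign and 0 were called. Without 1 animal, 50 of 438 changed sign and 0 were called.

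Counts over all genes moved more. In kidney 1 gene was called, against 8 in the 8-array fit. In muscle 0 were called, against 278 with a spread shared by all tissues and 2 in the 8-array fit, and in pancreas 0 against 71 with a shared spread. Brain against muscle had 114, against 40 with the replicate block, 1 with turned signs, 75 with kept floor values, 68 with scaled arrays, 200 with single probes and 0 to 237 without 1 animal. Muscle against pancreas had 151, against 66 with the block, 6, 94 and 2 to 138 for turned signs, kept floor values and leaving out 1 animal. Kidney against muscle had 3, against 0 with the block, 1 with scaled arrays and 45 without animal 1. With only the 2 tissues in the fit, 0 genes and 0 subunits were called in each pair. The 4 animals of a tissue and the single pool limit what can be detected, and a mean as large as 0.54 ± 0.23 (Cox6a2 in muscle) was not called.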
